A study of Mus musculus with 4 samples.

Results

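The Sprouty and Spred genes encode a small family of inhibitors of the Ras-ERK pathway, and this account describes 6 of them in fosTRAP-seq libraries of mouse CA1 neurons. The family has 7 members by symbol, the Sprouty genes Spry1, Spry2, Spry3 and Spry4 and the Spred genes Spred1, Spred2 and Spred3. It was chosen from these same libraries, because Spry4 and Spred1 were higher after a second sleep deprivation. The members were picked by gene symbol from a count table of 28193 genes. Spry3 is not analysed here, and the other 6 all passed the count filter, which left 22338 genes. Because the rise of Spry4 and Spred1 was the reason for the choice, the difference of every member between the groups is given as a description, with its interval and with no p-value. Where it is said whether a member was past the thresholds used across all genes, that too only describes the values it was chosen on and supports nothing.

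All mice were male C57BL/6J, 3 to 5 months old, and carried in CA1 one AAV vector with ERT2-Cre-ERT2 under the c-Fos promoter and a second AAV vector with a Cre-dependent, EF1a-driven, HA-tagged Rpl22. All of them received 4-hydroxytamoxifen on day 0 and were sleep deprived for 5 h, so that cells with an active c-Fos promoter in that window came to carry HA-tagged ribosomes. A further 5 h of deprivation followed on day 7 in the SD mice, while the NSD mice were left undisturbed, and tissue was taken at ZT5. The CA1 of 5 mice was pooled per library before the HA immunoprecipitation, which gave 2 NSD and 2 SD libraries, and every spread quoted is between such pools. The labels name the line as cFos-Cre:Ribotag and the tissue as dorsal hippocampus, whereas the study's methods describe the vectors and CA1, which are used here. The tag is meant to record activity on day 0, so the libraries hold RNA of tagged cells whether or not they were active again on day 7, and the study describes some tagging without 4-hydroxytamoxifen. Both groups had the day 0 deprivation, and neither is a group of mice that had never lost sleep.

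Growth factors such as BDNF, the FGFs and neuregulins act through receptor tyrosine kinases, adaptors and exchange factors to load Ras with GTP, which activates Raf, then MEK, then ERK. Active ERK enters the nucleus and switches on immediate early genes, and in hippocampal neurons it takes part in synaptic plasticity and memory. Sprouty proteins are brakes on this route and are themselves transcribed in response to ERK, which makes them feedback inhibitors. Spred proteins share the cysteine-rich Sprouty domain at the C terminus and carry an EVH1 domain at the N terminus, with which Spred1 binds neurofibromin, the Ras GTPase-activating protein encoded by Nf1, and brings it to the membrane. Loss of SPRED1 causes Legius syndrome in people, and mice without Spred1 learn poorly in hippocampus-dependent tasks.

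The 4 libraries held between 153511705 and 195910235 estimated counts, and 26043 to 27448 genes were counted at least once in each. Markers of CA1 pyramidal neurons, the 6 genes of that list together, summed to 5821 and 6133 CPM (counts scaled to a common library total) in NSD and to 5559 and 6000 CPM in SD, and none was at 0. Camk2a alone was at 4284 and 4338 CPM in NSD and at 4090 and 4379 CPM in SD, so the sum mostly follows that gene. The median log2 fold change of the 6 markers was -0.19. Without the block 0 were called, and 3, Fibcd1, Neurod6 and Wfs1, were called lower with it and by DESeq2. Marker RNA of other cells was detected too. In sum, 6 oligodendrocyte markers were at 1440 to 1734 CPM, 6 interneuron markers at 719 to 810 CPM and 6 astrocyte markers at 435 to 486 CPM. The 5 markers of oligodendrocyte precursors were at 103 to 119 CPM, 6 microglial markers at 55.3 to 72.8 CPM and 3 dentate granule cell markers at 31.6 to 40.4 CPM. These ranges overlapped between the groups. The 10 endothelial markers did not overlap: they summed to 49.7 and 69.5 CPM in NSD and to 40.7 and 26.4 CPM in SD, with a median log2 fold change of -0.76. All 10 were below 0 on the log2 scale, 0 were called by the quasi-likelihood test of edgeR after Benjamini-Hochberg adjustment, 7 were lower at an unadjusted p under 0.05, 6 were called lower with the batch number as a block and 4 were called lower by DESeq2. Whether this difference in endothelial RNA had any part in the values of the Sprouty and Spred genes was not tested. In a bulk pull-down, fewer cells of a type, less RNA per cell and less RNA from untagged cells cannot be told apart. Whether the marker RNA of other cells came from tagged cells was not tested.

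The study's thresholds were kept for a call, namely a fold change above 1.2 together with an adjusted p below 0.05. Its test was not: the study used DESeq2, and the main fit here is the quasi-likelihood test of edgeR, so the calls differ from the study's. Across the 22338 genes, 0.77% were called higher in SD and 2.33% lower, and with the batch number as a block 2.99% were higher and 8.47% lower. With the block, the 4 libraries leave little to estimate the spread of a single gene. Calls and p-values with the block therefore rest largely on spread pooled across genes. Of the 6 members, 2 met both thresholds upward, Spry4 and Spred1, and 0 downward, with and without the block, and no member had a fitted change below 0. The number was 1 without a count filter and among protein-coding genes alone, and 0 with filterByExpr. These counts follow from how the family was chosen, and nothing is read from them. The median log2 fold change of the 6 members was 0.17, against -0.02 over all genes tested and 0.02 over the 15551 protein-coding genes tested. For 5 members, all but Spry1, the lower SD library was above the higher NSD library. The same held for 22% of all genes tested and for 26.5% of the protein-coding ones, and the opposite order for 27.5% and 20%. Nearest to the fold threshold, Spred1 was inside it at a fold of 1.27 and Spred3 outside it at 1.15.

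Spry4 lies on the minus strand of chromosome 18 (GRCm39, 38719300 to 38734468, ENSMUSG00000024427). It had the largest change of the family. Both NSD libraries were at 31.0 CPM, and the SD libraries were at 48.3 and 47.3 CPM, from 4876 to 8950 counts. The lowest SD library was thus well above the highest NSD library, and the libraries of a group lay within 1 CPM of each other. The mean went from 31.0 ± 0.0118 to 47.8 ± 0.698 CPM (s.d., n = 2). Counting alone gives a 95% interval of 2.74% and 2.82% on either side in the NSD libraries, wider than the difference between them. The small NSD s.d. is thus no measure of precision. The fitted difference was 0.62 ± 0.07 (SE) on the log2 scale with a 95% interval of 0.47 to 0.78, or a fold of 1.54. Within batch 1 the log2 difference was 0.64 and within batch 2 it was 0.61. Of the protein-coding genes tested, 212, or 1.36%, had a larger log2 fold change. Over the 10 alternatives run, the log2 fold change lay between 0.60 and 0.66, and with filterByExpr, at 0.63, it was not past the thresholds. No exon of another annotated gene overlaps those of Spry4.

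Spry2, a widely expressed Sprouty that binds the ubiquitin ligase Cbl, lies on chromosome 14 (GRCm39, 106129381 to 106134253, minus strand, ENSMUSG00000022114). It stood at 49.0 and 52.0 CPM in NSD and at 54.5 and 56.2 CPM in SD. The groups did not overlap, but the gap between them, 2.52 CPM, was smaller than the 2.94 CPM between the NSD libraries. The log2 fold change was 0.13 ± 0.07 (SE, n = 2), with a 95% interval of -0.02 to 0.29, and 0.15 and 0.11 within the batches. This is a rise of 9.57% in the fitted level, and the interval includes no change. A stretch of 564 exon bases of Spry2 is shared with the lncRNA Gm62623 on the opposite strand.

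Spry1, on chromosome 3 (GRCm39, 37694096 to 37698747, plus strand, ENSMUSG00000037211), is best known for restraining FGF and GDNF signaling in development. It was the scarcest member and the only one whose groups overlapped. Its levels were 3.93 and 4.44 CPM in NSD and 3.99 and 4.42 CPM in SD, so that the libraries of batch 1 were low and those of batch 2 high in both groups. The means were 4.19 ± 0.365 and 4.21 ± 0.305 CPM (s.d., n = 2). The log2 fold change was 0.01 ± 0.16 (SE), with a 95% interval of -0.36 to 0.38, and its sign turned when protein-coding genes alone were fitted or when the NSD library 1 or the SD library 2 was left out. It rested on 651 to 836 counts per library, for which counting alone gives a 95% interval of 6.84% to 7.76% on either side. Of its exon bases, 19.0% overlap the gene Gm42922 on the opposite strand, whose counts were 3.61% of those of Spry1.

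**Figure D1:**
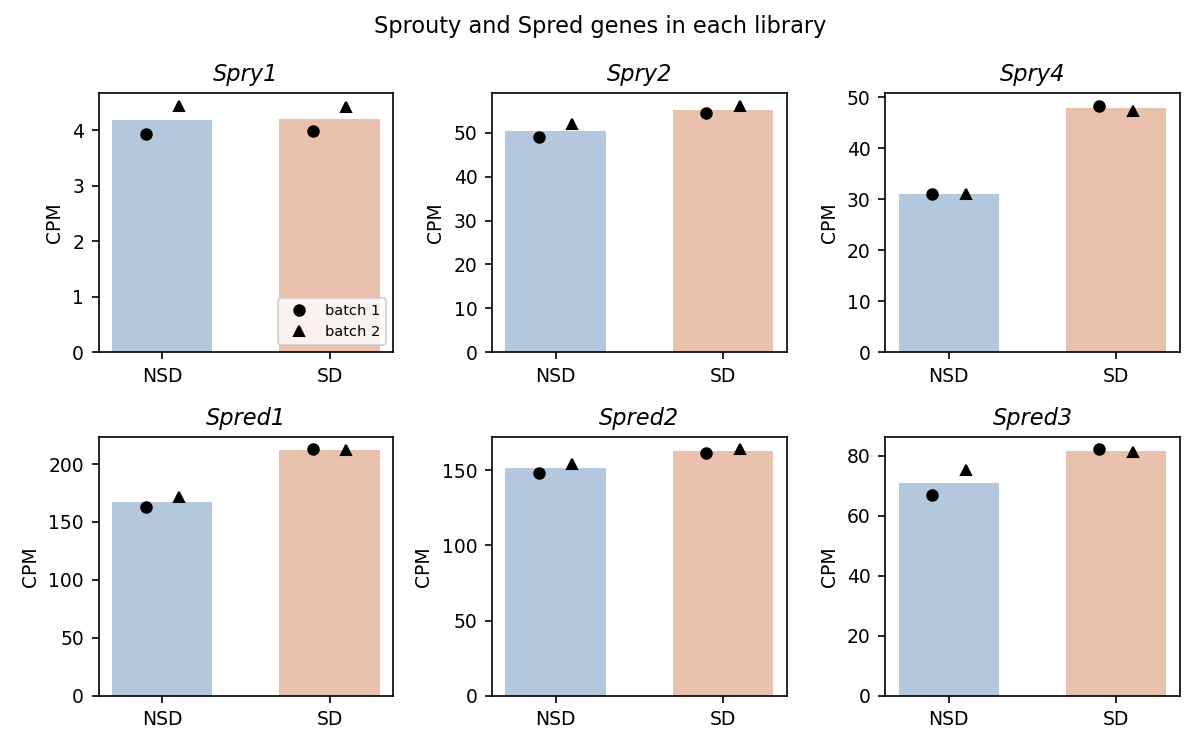
Level of each of the 6 members in every library, in CPM, with one panel per gene and the axis of each panel starting at 0. Points are the NSD and SD libraries of batches 1 and 2 and bars are the group means: Spry4 goes from 31.0 to 47.8 CPM and Spred1 from 167 to 212 CPM, while the Spry1 libraries of both groups sit between 3.93 and 4.44 CPM.

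Spred1, on chromosome 2 (GRCm39, 116951855 to 117012760, plus strand, ENSMUSG00000027351), had the highest CPM of the family in every library. Its levels were 163 and 171 CPM in NSD and 213 and 212 CPM in SD. All SD values were above all NSD values, and the SD libraries lay closer together than the NSD libraries. The mean went from 167 ± 6.21 to 212 ± 0.541 CPM (s.d., n = 2). The fitted difference was 0.35 ± 0.07 (SE) on the log2 scale with a 95% interval of 0.18 to 0.51, or a fold of 1.27. The difference was 0.39 within batch 1 and 0.31 within batch 2. Of the protein-coding genes tested, 795, or 5.11%, had a larger log2 fold change. Over the 10 alternatives run, the log2 fold change lay between 0.33 and 0.39. The study names Spred1 as upregulated in these libraries and in its earlier TRAPseq of hippocampal excitatory neurons. The inclusion of Spred1 among the 2 members past the thresholds, which describes the values it was chosen on, depended on the setting. Spred1 was past the thresholds with DESeq2, the test the study used. It was not past them without NSD library 1 (0.34), without SD library 1 (0.35), without a count filter (0.38), with filterByExpr (0.35) or among protein-coding genes alone (0.33).

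Spred3, on chromosome 7 (GRCm39, 28858254 to 28869836, minus strand, ENSMUSG00000037239), is a Spred known mainly from brain whose KIT-binding domain is not functional. It stood at 66.8 and 75.3 CPM in NSD and at 82.2 and 81.3 CPM in SD. The groups did not overlap, with a gap of 5.92 CPM between them and 8.50 CPM between the NSD libraries. The log2 fold change was 0.20 ± 0.08 (SE, n = 2), with a 95% interval of 0.03 to 0.37, and the batches differed more than for the other Spred genes, at 0.30 in batch 1 and 0.11 in batch 2. Its fold of 1.15 was under 1.2, and its log2 fold change ran from 0.15 without NSD library 1 to 0.29 without NSD library 2, the latter a value past that fold. It shares 202 exon bases with Ggn on the opposite strand, whose counts were 1.45% of those of Spred3, and 211 with the lncRNA Gm73445, also on the opposite strand.

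Spred2, on chromosome 11 (GRCm39, 19874375 to 19974026, plus strand, ENSMUSG00000045671), the closest relative of Spred1, changed least among the Spred genes. It was at 148 and 154 CPM in NSD and at 161 and 164 CPM in SD. The groups did not overlap, and the log2 fold change was 0.10 ± 0.07 (SE, n = 2) with a 95% interval of -0.05 to 0.26, which includes no change. The batches gave 0.12 and 0.09. Neither Spred1 nor Spred2 has exon bases in common with another annotated gene.

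**Figure D2:**
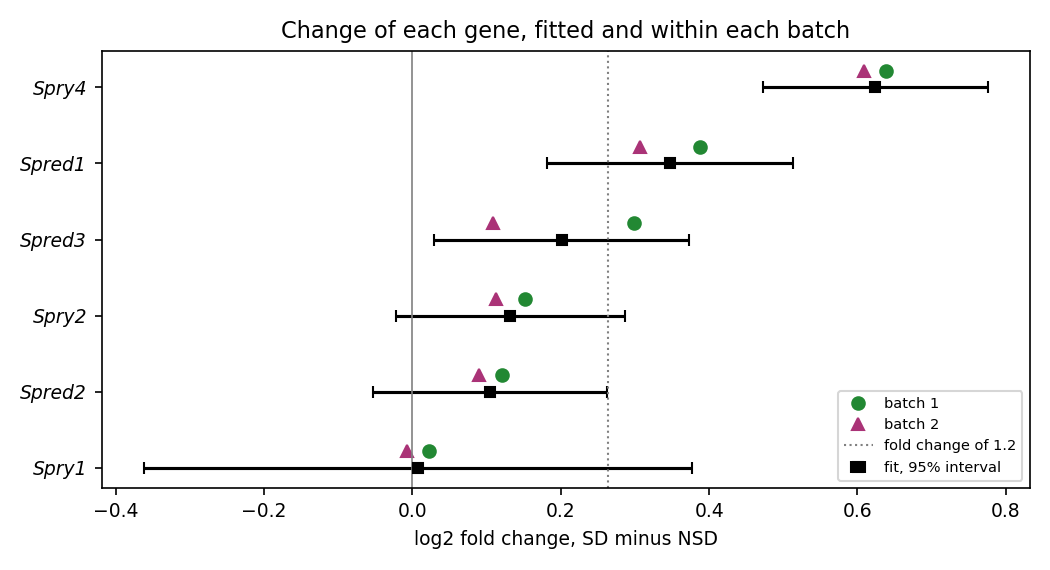
Log2 fold change of the 6 members, SD over NSD, as points with 95% intervals from the edgeR fit, with the difference within each batch beside them. Spry4 at 0.62 and Spred1 at 0.35 lie to the right of the other members, which range from 0.01 for Spry1 to 0.20 for Spred3.

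The promoter sequences of Spred1 and Spred2 are shown because these near relatives stood at like levels and differed in the size of their change. The sequences are the 250 bases before the start of each gene in RefSeq, on build GRCm38.p6, chr2:117120821-117121070 and chr11:19924192-19924441, both on the plus strand. The capitals mark TGACG or its complement CGTCA, the core letters of the cAMP response element.
Spred1: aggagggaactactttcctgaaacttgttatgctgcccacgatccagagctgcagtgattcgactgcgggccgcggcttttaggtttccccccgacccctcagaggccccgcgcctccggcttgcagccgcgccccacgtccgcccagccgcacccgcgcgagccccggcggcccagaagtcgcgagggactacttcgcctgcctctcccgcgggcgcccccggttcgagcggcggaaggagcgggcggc
Spred2: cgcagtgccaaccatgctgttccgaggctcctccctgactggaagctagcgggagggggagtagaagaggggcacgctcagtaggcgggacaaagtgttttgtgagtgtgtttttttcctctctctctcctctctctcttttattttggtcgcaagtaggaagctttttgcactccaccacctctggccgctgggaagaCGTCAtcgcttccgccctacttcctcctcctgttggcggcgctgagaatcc
Spred1 has no match to the core in this window, and Spred2 has the letters CGTCA at 51 bases before its start. Of the 5 members scanned, Spry1, Spry2, Spred1, Spred2 and Spred3, this was the only match to it, while Spry3 and Spry4 were not scanned, and 17.8% of all 32851 promoter windows of this length hold one on either strand. The full element TGACGTCA, which contains the core, was in 0 of the 5 and in 1.55% of all windows. The AP-1 letters TGANTCA were in 0 of the 5 and in 6.75%, and the ETS letters CCGGAAG in 0 of the 5 and in 6.91%. The Egr letters GCGTGGGCG and GCGGGGGCG were also in 0 of the 5, against 0.536% and 2.57% of all windows. The Spred1 window was 70.8% G or C with 31 CpG dinucleotides, richer than 91.7% of windows, and the Spred2 window was 56.0% with 12. Spry1 and Spry2 both came to 62.4% with 23 CpG dinucleotides, and Spred3 to 55.6% with 6, where the median of all windows was 52.4%.

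To compare the members with each other, CPM were divided by the kilobases of exon that each gene covers. On this scale of level per length, the mean over the 4 libraries was 25.8 CPM per kb for Spred2, 24.4 for Spred1, 11.6 for Spred3, 10.3 for Spry2, 5.97 for Spry4 and 0.879 for Spry1. The Spred genes thus stood above the Sprouty genes. Of the protein-coding genes tested, 6.61% had a higher level than Spred2, 7.13% than Spred1, 16.0% than Spred3, 18.0% than Spry2, 28.1% than Spry4 and 67.8% than Spry1. Neighbours in the order did not always separate. The ranges of Spred2 and Spred1 overlapped, and so did those of Spred3 and Spry2, although Spred3 was above Spry2 in 4 of 4 libraries. The larger steps were from Spred1 to Spred3, with a ratio of means of 2.11, from Spry2 to Spry4, with 1.72, and from Spry4 to Spry1, with 6.80. The order was the same with the length of the longest transcript in place of the exon union.

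Spred1 and Spred2 changed places between the groups. The level of Spred1 per length was 0.859 and 0.873 of that of Spred2 in the NSD libraries and 1.03 and 1.01 of it in the SD libraries. Spred2 was thus above in both NSD libraries and Spred1 in both SD libraries. With the longest transcripts as lengths the ratios were 0.841 and 0.854 in NSD and 1.01 and 0.993 in SD, so that SD library 2 was then just below 1. The rise of the ratio does not depend on the lengths, and the crossing of 1 does.

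Summed over the 6 members, the level per length was 70.5 and 74.5 CPM per kb in NSD and 85.1 and 85.5 CPM per kb in SD. The group means were 72.5 and 85.3, a difference of 12.8 CPM per kb. Spred1 made up 45.6% of this difference and Spry4 19.9%, so that both together made up 65.5%. Spred2 added 14.6%, Spred3 12.6%, Spry2 7.32% and Spry1 0.0333%. The share of Spry4 in the family's sum was 6.67% and 6.31% in NSD and 8.61% and 8.39% in SD, and the share of Spred1 was 29.7% and 29.6% in NSD and 32.2% and 31.9% in SD. The share of Spred2 moved the other way, from 34.6% and 33.9% in NSD to 31.1% and 31.5% in SD, although its own level was not lower. The division between the subfamilies hardly differed, with 77.8% to 78.9% of the sum in the Spred genes in every library.

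**Figure D3:**
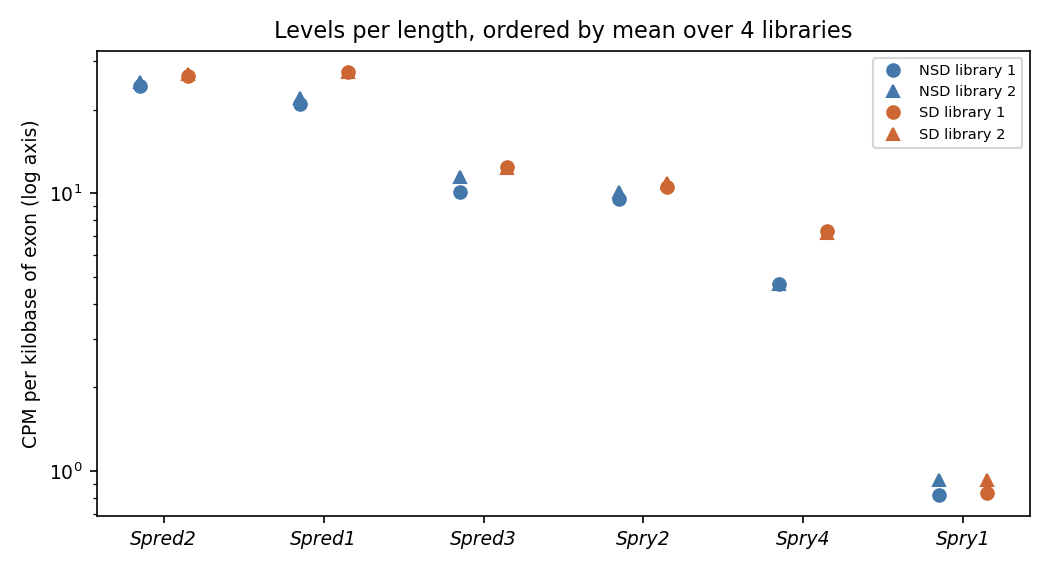
Level per length of the 6 members in each library, in CPM per kilobase of exon on a log axis, ordered from Spred2 to Spry1, with NSD and SD libraries as separate points. The points of Spred2 and Spred1 overlap near 25 CPM per kb, and Spry1 lies below all others, under 1 CPM per kb.

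The genes whose profile over the 4 libraries was most like that of Spry4 or Spred1 were found by the Euclidean distance between centred log2 CPM, among 15550 other protein-coding genes. With 4 libraries in 2 groups, such a distance mostly measures a difference of similar size between the groups. Nearest to Spry4 was Akap12, a scaffold protein that binds protein kinase A, at a distance of 0.0127. Akap12 stood at 22.6 and 22.8 CPM in NSD and at 35.1 and 34.5 CPM in SD. The next were Syce2, a meiotic protein at a mean of only 0.637 CPM, the pseudokinase gene Trib1, the matrix gene Mfap4 at a mean of 0.542 CPM, and Sik1, a salt-inducible kinase. Nearest to Spred1 were Aggf1 at 0.0170, the deubiquitinase gene Usp31, the integrin gene Itga3, the alpha-2A adrenergic receptor gene Adra2a and the amino acid transporter gene Slc43a2. The members were not each other's nearest neighbours. Spred1 ranked 227 in likeness to Spry4, and in likeness to Spred1 the order was Spred3 at rank 735, Spry2 at 1835, Spred2 at 2547, Spry4 at 3791 and Spry1 at 6848.

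Around the members, 8 lists with 116 genes of the pathway in all were read from the same fit, and 112 of these genes were tested. The lists were chosen with earlier results of these data known. Their shares are therefore given beside the background as a description, and nothing is read from an excess. Of the 112, 3 genes were called higher (2.68%) and 0 lower, against 0.952% and 0.54% of the protein-coding genes tested and 0.77% and 2.33% of all genes. Of the 112, 63.4% (71 genes) were above 0, against 54.2% of protein-coding genes. With the block, 9 were called higher (8.04%) and 3 lower (2.68%), against 3.77% and 3.29% of protein-coding genes and 2.99% and 8.47% of all genes. The median log2 fold change of the lists together was 0.06. At an unadjusted p under 0.05, 18 were higher (16.1%) and 5 lower (4.46%), against 8.86% and 5.76% of protein-coding genes and 6.86% and 12.2% of all genes. In both directions together these were 20.5% of the list genes, 14.6% of protein-coding genes and 19.1% of all genes, the background for the counts at this p in the single lists. DESeq2 called 8 higher and 1 lower, against 3.91% and 1.79% of protein-coding genes.

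Upstream of Ras, no gene passed. Of 22 growth factor ligands tested 10 were above 0, with a median log2 fold change of -0.04, and of 15 receptor tyrosine kinases 7 were above 0, with a median of -0.01. At an unadjusted p under 0.05 there were 3 ligands and 2 receptors, and DESeq2 called 0 of either. Ntrk2, the receptor of BDNF and the most abundant of these receptors, was at 668 and 723 CPM in NSD and at 726 and 747 CPM in SD, a log2 fold change of 0.08 with an adjusted p of 0.709. With the block, the ligand gene Fgf9 was called higher, and the ligand gene Nrg3 and the receptor gene Pdgfrb lower. Among 18 adaptors and Ras exchange factors 0 were called, the median was 0.11, 6 had an unadjusted p under 0.05 and DESeq2 called 3 higher. The adaptor genes Crkl and Shc3 were called higher with the block and by DESeq2, at log2 fold changes of 0.27 and 0.31. Their adjusted p-values were 0.0591 and 0.0804 without it and 0.0056 and 0.00495 with it. Crkl was also called by edgeR with the size factors of DESeq2 (0.0482), and Shc3 was not (0.0662).

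In the Ras-Raf-MEK-ERK core, 1 of 17 genes was called and 14 were above 0, with a median of 0.06 and 4 at an unadjusted p under 0.05, 3 of them higher. The called gene was Ksr2, a scaffold that holds Raf, MEK and ERK together. It rose from 311 and 311 CPM in NSD to 426 and 417 CPM in SD, with a log2 fold change of 0.44 ± 0.08 (SE) and an adjusted p of 0.0385. Without NSD library 1 its adjusted p was 0.0601.

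Downstream of ERK are the genes that switch it off and those it switches on. All 7 dual-specificity phosphatase genes that act on ERK were above 0, with a median log2 fold change of 0.32, 2 were called higher and 3 were higher at an unadjusted p under 0.05. Of the 7, 2 were under 1 CPM, Dusp9 and Dusp2, and Dusp2 was at 0.18 ± 0.45 (SE), with -0.51 within batch 2. Dusp5, a nuclear ERK phosphatase, rose from 22.9 and 26.8 CPM to 40.7 and 40.3 CPM, a log2 fold change of 0.71 ± 0.09 (SE) with an adjusted p of 0.0328. Dusp4, also nuclear, rose from 36.1 and 42.3 CPM to 50.9 and 52.6 CPM, by 0.40 ± 0.09 with an adjusted p of 0.0481. Dusp4 lost its call without NSD library 1, with an adjusted p of 0.0785, without a count filter (0.0557), with filterByExpr (0.0759) and among protein-coding genes alone (0.0757). Ksr2 and Dusp5 lost theirs with filterByExpr, both at 0.0628. Dusp1 was called with the block and by DESeq2 but not otherwise, at 0.32, and Dusp6, the cytoplasmic ERK phosphatase, was at 0.20, with an adjusted p of 0.359, and at 0.07 without NSD library 1 and 0.39, a call, without NSD library 2. Of 12 ERK output genes 7 were above 0, with a median of 0.18, 1 was called, Dusp4 again, and at an unadjusted p under 0.05 there were 4 higher and 1 lower. The ETS factor genes Etv1 and Etv5 were at 0.52 and 0.46, and in both genes NSD library 1 was the lowest and the groups did not overlap. Their adjusted p-values were 0.124 and 0.0865 without the block and 0.00118 and 6.24e-04 with it, and DESeq2 called Etv5 and not Etv1. Without NSD library 1 the log2 fold changes were 0.29 for Etv1 and 0.31 for Etv5. The related factor gene Etv4, at only 2.22 to 2.82 CPM, was at -0.22, with an adjusted p of 0.638 and both SD libraries below both NSD libraries. Etv1 and Etv5 were called when any other library was left out, at 0.46 to 0.84 for Etv1 and 0.39 to 0.66 for Etv5. Epha4, an ephrin receptor gene kept in this list, was at -0.34, with an adjusted p of 0.0888, and was called lower with the block, with an adjusted p of 0.00531, and by DESeq2.

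The other brakes on Ras and the genes that act on Sprouty or Spred proteins had 0 calls, with and without the block and by DESeq2. Of 16 other brakes 11 were above 0, with a median of 0.06, and 1 had an unadjusted p under 0.05. Of 9 partners and modifiers 7 were above 0, with a median of 0.05, and 0 had an unadjusted p under 0.05. Nf1, whose product Spred1 brings to the membrane, was at 448 and 468 CPM in NSD and at 455 and 490 CPM in SD. Its groups overlapped and its log2 fold change was 0.05, with an adjusted p of 0.843. Nedd4, a ubiquitin ligase that acts on Spry2, was at 0.05, with an adjusted p of 0.84.

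**Figure D4:**
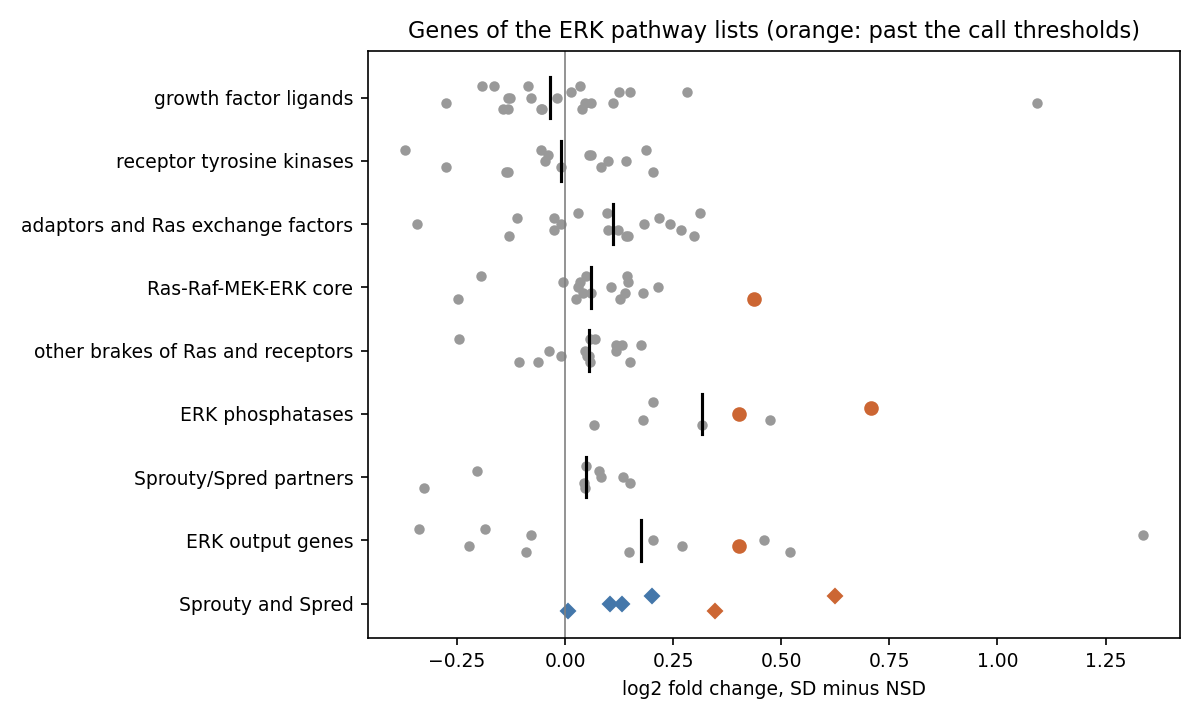
Log2 fold change, SD over NSD, of the 112 genes tested in the 8 pathway lists, one point per gene in the row of its list, with the 6 members in a row of their own and called genes marked. The median is 0.32 in the row of ERK phosphatases and between -0.04 and 0.18 in the other pathway rows, and the members' row runs from 0.01 to 0.62.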

How the data were processed

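The authors trimmed the reads of stranded total RNA libraries, aligned them with STAR to the mouse genome (GRCm39) and used the expectation-maximization model of Partek to make the deposited table of estimated counts, which is not normalized. Whether strand was used in counting is not given in the sources used here. In the table, 55.6% of genes have a value that is not whole, and all values were rounded. The 22338 genes above 5 counts in all libraries entered a quasi-likelihood fit on group in edgeR 4.0.16 (R 4.3.3), scaled by TMM, with p-values adjusted over all of them by Benjamini-Hochberg. CPM used TMM-scaled totals, and log2 values of single libraries a prior count of 2. Exon lengths and overlaps came from GENCODE release M39.

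The members and gene lists were chosen with earlier results of these data known. Named by rule were the members, the called genes of the pathway lists, up to 4 further genes per list by level per length, and the 5 nearest genes to Spry4 and to Spred1. Further pathway genes, such as those called only with the block or by DESeq2, were named after their values were seen.

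In the labels, batch and replicate numbers coincide, and each batch pairs an NSD with an SD library. Across genes, the deviations from the group mean correlated at 0.178 between libraries of a batch. Nothing says how the pools of mice were formed beyond this. Alternatives were this number as a block, edgeR with the size factors of DESeq2, DESeq2 1.42.0 itself, filterByExpr, no count filter, protein-coding genes only, no fold threshold, other lengths, and each library left out. The fits were tested on simulated counts. Intervals of counts cover counting error only. No protein sequences were used. One result of the rule for named genes is not reported here.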

Additional observations from a re-analysis of the deposited data

How the results depend on the processing

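With 2 libraries per group, the spread between pools limits precision, and the 0.77% and 2.33% of genes called moved with the settings. The reported fit gave 172 higher and 520 lower calls. DESeq2 gave 669 and 1294, no count filter 50 and 80, filterByExpr 1 and 0 (4410 genes at an unadjusted p under 0.05), protein-coding genes alone 51 and 39, and leaving out a library 144 to 321 and 87 to 1953. The share of calls that were higher was 24.9%, 38.5% without a filter, 56.7% among protein-coding genes, 62.3% without NSD library 1 and 13% without SD library 1. The 1 call with filterByExpr was higher.

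With the replicate block, 668 genes were higher and 1891 lower, and of the pathway genes 9 and 3. The block changed no call of a member, and neither did DESeq2, its size factors in edgeR or dropping the fold threshold. DESeq2 called 8 pathway genes higher and 1 lower, filterByExpr 0 higher, and leaving out a library 1 to 6 higher and 0 to 1 lower.

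Described in the same way as the values they were chosen on, members past the thresholds numbered 1 without a filter, 0 with filterByExpr, 1 among protein-coding genes and 1 to 2 with a library left out. Spred1 was not among them at log2 fold changes of 0.38 without a filter, 0.35 with filterByExpr and 0.33 among protein-coding genes, and ranged from 0.34 to 0.39 with a library left out. Spry4 was not with filterByExpr, at 0.63, and ranged from 0.61 to 0.66. Spred3 ranged from 0.15 to 0.29. Spry1 turned to -0.013 among protein-coding genes and ranged from -0.05 to 0.10 with a library left out. The cause was not tested. With the longest transcript as length the levels were 1.18 for Spry1, 13.6 for Spry2, 29.8 for Spred1, 32.1 for Spred2 and 17.7 CPM per kb for Spred3. A library left out leaves 1 in its group, which is assumed to vary like the other group.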
